A study of Mus musculus with 6 samples.

Results

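The long intergenic intervals of the array were compared between primary mammary epithelial cells of mice lacking Plk2 and of wild-type mice. An interval is a stretch of the mouse genome (build mm9) that the array names by chromosome, start and end, followed by an F or an R. The files do not define the letters, so F and R are used here as parts of the name. The array held 4607 such intervals. Members were chosen by measured values, without regard to group: an interval was kept when the array's own flag placed 1 or more of its probes well above background on 3 or more of the 6 samples' arrays. This left 2315 measured intervals among 22053 genes and regions tested, of which 19738 were not intervals. The samples were 3 Plk2 -/- and 3 wild-type preparations from female mice aged 8 weeks on a mixed 129sv/C57Bl6 background. Glands were dissociated to obtain the cells, and total RNA was labelled with Cy3 and hybridised to single-colour Agilent arrays. The labels do not say how the Plk2 allele was made, in which cells it was lost or whether mice were pooled. Sample titles carry different numbers, but nothing says that the samples came from separate animals, so p-values measure only the spread between these samples.

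Long intergenic transcripts are RNAs transcribed from stretches between protein-coding genes. Many such stretches were first mapped through chromatin, with methylation of histone H3 at lysine 4 over the start and at lysine 36 along the transcribed body. Many of these RNAs are spliced, lie in the nucleus and are made in few cell types. Some bind Polycomb repressive complexes or nuclear RNA-binding proteins, while others are degraded rapidly by the nuclear exosome. Plk2 is a Polo-like kinase known for its part in centriole duplication and in the response to stress. Probe and interval sequences and the genes beside the intervals were not analysed here.

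Plk2 itself had a processed signal of 1169, 1160 and 1472 in the wild-type samples and of 1.87 to 2.44 in the null samples. It was not well above background on any null array, and it was at least 152-fold lower there (limma adjusted p = 2.53e-06). Between 50.2% and 54.8% of all probes were well above background on each array. The arrays correlated at 0.959 to 0.991 over all entries, and their number limits the precision. All 6 mammary epithelial keratin and adhesion markers were measured, with a summed level of 1491 to 1540 times the array's 75th percentile in wild type and 1457 to 1875 in null. Of these, the basal keratin Krt14 was higher in null at an unadjusted p under 0.05 (difference 0.91, SE 0.33), and Krt5, also basal, had a difference of 0.96 (SE 0.43) that did not reach it. Markers of other cells also differed with genotype. Over all entries, 14.1% were higher and 10% lower at an unadjusted p under 0.05. All 15 measured lymphocyte genes of 16 listed had an unadjusted p under 0.05 with lower values in null, and their summed level was 43.1 to 73.8 in wild type and 12.6 to 29.6 in null. Null sample 3 lay nearest to wild type, with a median of -1.34 on the log2 scale over the list, against -2.97 and -3.17 in the other null samples. Of 11 fibroblast genes, 8 were lower at that p, with sums of 1986 to 2261 in wild type and 1335 to 1815 in null. All 13 measured mitosis genes of 15 were higher at that p, with sums of 12.3 to 20.01 and 43.2 to 134.6 in the same order. No gene of these lists passed the adjusted threshold in limma. The lymphocyte gene Pax5 and the mitosis genes Cdk1 and Aurkb did not reach 3 arrays. Macrophage genes (6 of 7 measured) summed to 112 to 150 in wild type and 119 to 126 in null, with 1 higher (Cd14) and 2 lower (Mrc1 and Csf1r) at that p and 5 of 6 differences negative. Endothelial genes (6 of 6) summed to 49.3 to 82.5 and 40.2 to 70.5, with none at that p and all 6 differences negative. Adipocyte genes (4 of 5) summed to 5.64 to 14.00 and 6.85 to 13.04, with none at that p and 3 of 4 differences positive. The part of these cell types in the interval differences was not tested. In bulk RNA, fewer cells of a type and less RNA per cell cannot be told apart.

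Intervals under 1 kb and intervals with few probes were measured less often. Under the rule any of an interval's probes could admit it, and the part of this in the shares was not tested. Of 983 intervals under 1 kb, 389 (39.57%) were measured. The share was 54.03% for 1 to 10 kb, 53.01% for 10 to 100 kb and 48.9% for the 182 intervals over 100 kb. By probe number, 32.32% of intervals with 1 probe, 48.05% with 2 to 4 and 63.32% with 5 or more were measured. F and R names were measured at 48.88% and 51.64%. Chromosome 17 had the highest share at 62.89% and chromosome X the lowest at 40.45%. Most members were seen everywhere: by the kept probe of highest mean, 1823 were well above background on all 6 arrays, 218 on 5, 110 on 4 and 164 on 3. Of those 164, 30 were detected by that probe in the 3 null samples alone and 6 in the 3 wild-type samples alone. At the edge of the rule, the 164 intervals just inside had a median level of -4.68 (log2, relative to the array's 75th percentile), and the 214 detected on 2 arrays, just outside, a median of -5.05. Each array alone detected 2194, 2227 and 2343 intervals in wild type and 2442, 2695 and 2320 in null.

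The comparison asked which intervals differed when Plk2 was absent. Few did: 12 intervals were higher and 9 were lower in the null samples at a limma p adjusted by the Benjamini-Hochberg method over all 22053 entries under 0.05. That is 0.518% and 0.389% of the members, against 0.689% and 0.816% of all entries. For 4 of the higher and 3 of the lower intervals, the probe was well above background in 1 group only. Such a probe passed the filter through the group where it was high, so its p is not independent support. At an unadjusted p under 0.05, 178 intervals (7.69%) were higher and 159 (6.87%) lower, against 14.1% and 10% of all entries. Null values lay entirely above wild type for 262 intervals (11.3%) and entirely below for 205 (8.86%), against 20.2% and 12.4% of all entries. Differences over 1 on the log2 scale in either direction were found for 5.18% of intervals and 7.55% of entries. The spread between replicates was somewhat larger for intervals, with a median SD of 0.24 in wild type and 0.29 in null against 0.18 and 0.25 over all entries, and the median SE was 0.22 against 0.20. The middle of the distribution hardly moved: the median difference was -0.02 for intervals, with 1094 positive and 1221 negative, and 0.04 for all entries. Its sign has no meaning here, because it was 0.01 when arrays were centred on their medians. The 95% interval of the difference lay within a 2-fold change either way for 1487 members (64.2%) and within 1.5-fold for 566 (24.4%), so a small change remained possible for most.

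**Figure D1:**
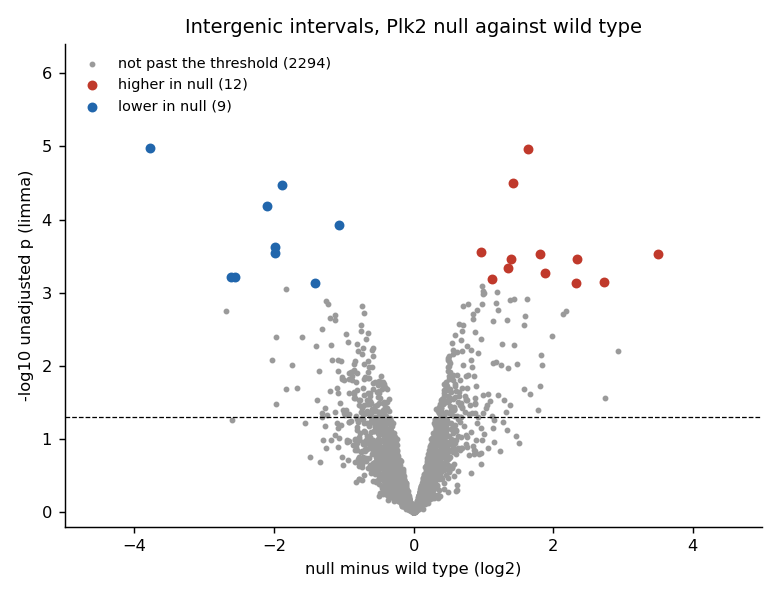
Each point is 1 of the 2315 measured intervals, with the null minus wild-type difference (log2) on the x axis and -log10 of the unadjusted limma p on the y axis. Red points are the 12 higher and blue points the 9 lower intervals at an adjusted p under 0.05, and the dashed line marks an unadjusted p of 0.05.

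Scaling and single samples changed these counts. With arrays centred on their spike-in control spots, the median difference of all entries shifted to 0.30 and the calls to 23 higher and 7 lower, 1.3% of intervals against 2.43% of all entries. At an unadjusted p under 0.05 the split became 334 higher and 35 lower, 15.9% of intervals against 25.7% of all entries. Without null sample 3 the calls rose to 26 higher and 24 lower, of which 19 were among the 21 above; that is 2.16% of intervals against 3.75% of all entries. Without any one of the other samples few calls were left: 0 higher and 1 lower without wild-type sample 1, 0 and 0 without wild-type sample 2, 1 and 3 without wild-type sample 3, 0 and 0 without null sample 1, and 2 and 2 without null sample 2. Over all entries these fits called 0.0635% to 0.254%. At an unadjusted p under 0.05, limma gave between 119 and 173 higher and between 80 and 173 lower intervals in these fits. That was 9.55% to 14.3% of intervals against 15.4% to 22.9% of all entries. Each called interval was compared under 17 or 18 of the alternatives, those in which it was measured as an entry. The intervals each stayed called in 4 to 13 of these, and none changed sign. Leaving out 1 sample could not change a sign, because the groups of called intervals did not overlap. Nor could a change of the test alone.

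Among the 12 intervals that rose, 8 were above background in both groups. The interval chr6:134875724-134931975_F, 56252 bp long and carried by 1 probe, had values of -2.83, -3.27 and -3.21 in wild type and of -0.91, 0.11 and -1.52 in null (log2, relative to the array's 75th percentile). It rose 5.03-fold (log2 difference 2.33, SE 0.40, limma adjusted p = 0.0497). An interval of 1122 bp within it, chr6:134879009-134880130_F, had a like pattern, with -2.11, -2.87 and -2.49 in wild type and -0.44, 0.63 and -1.09 in null. Its difference of 2.19 (SE 0.44) did not pass, with an adjusted p of 0.0647 in limma. Both were highest in null sample 2, the sample in which the mitosis genes also stood highest, with a median of 3.18 above wild type against 1.52 and 1.63. Whether these move together for a shared reason was not tested.

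Further along the same chromosome, chr6:135294099-135300310_F also rose. Its values were -0.41, -0.85 and -0.53 in wild type and 0.33, 0.77 and 0.47 in null, a rise of 1.12 (SE 0.19, limma adjusted p = 0.0490). Its 3 other kept probes gave differences from -0.05 to 0.63, so the size of the change depends on the probe.

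The smallest p among the rising intervals belonged to chr9:27153416-27153677_F, only 262 bp long. Wild-type values were -3.69, -3.85 and -3.73, and null values were -1.97, -2.17 and -2.23. The spread within each group was small beside the gap of 1.63 (SE 0.14, limma adjusted p = 0.00923), a 3.10-fold rise. The longer interval that covers it under the same letter, chr9:27148989-27155714_F, had a difference of 0.02 (SE 0.24). Its wild-type values were -4.07 to -3.27 and its null values -3.77 to -3.38. The change was thus seen by 1 probe and not by the probe that stands for the surrounding interval.

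A similar split was found on chromosome 17. The interval chr17:56687541-56694616_F, of 7076 bp, had -0.86, -0.62 and -0.83 in wild type and 0.77, 0.67 and 0.53 in null, a rise of 1.43 (SE 0.15, limma adjusted p = 0.0176). The array also holds an interval with the same start and a slightly later end, chr17:56687541-56694631_F, and its probe gave -3.67, -3.57 and -3.89 in wild type and -4.29, -4.34 and -3.73 in null. That is a difference of -0.41 (SE 0.21) in the other direction, which did not pass. The R name of the called coordinates had a difference of 0.50 (SE 0.18, unadjusted p = 0.0313 in limma). Among the 3 other kept probes of the called interval, differences ran from -0.51 to 1.37.

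The interval chr8:93337794-93348869_R was carried by 3 kept probes that all gave differences of 1 sign. Values were -3.42, -3.45 and -3.95 in wild type and -2.20, -1.85 and -1.11 in null. The rise was 1.89 (SE 0.31, limma adjusted p = 0.0468), and the other probes gave differences of 2.02 and 2.15. On the same chromosome, chr8:34646787-34680312_F had -4.20, -4.55 and -4.79 in wild type against -3.05, -2.97 and -3.46, a rise of 1.35 (SE 0.21). Its 3 other kept probes gave differences of 0.73 to 1.18. The overlapping chr8:34627209-34667814_F had a difference of 1.29 with a larger SE of 0.56, because wild-type sample 2 stood at -5.59 and the other wild-type samples at -3.20 and -3.83.

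The other pair of risers measured in both groups were chr1:193923014-193923346_F and chr2:177789718-177813140_R. The first had -4.71, -4.25 and -4.00 in wild type and -3.07, -2.79 and -2.90 in null, a rise of 1.401 (SE 0.21). The other 3 measured intervals within 100 kb of it were also positive, at 1.18 and 0.75 for the F and R names of chr1:193815525-193825775 and at 0.06 for chr1:193875525-193978800_R. The second was the smallest change called, with values of -3.55, -3.83 and -3.71 in wild type and -2.74, -2.67 and -2.79 in null, a rise of 0.96 (SE 0.14). Both had an adjusted p below 0.05 in limma and groups that did not overlap.

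The kept probes of the other 4 risers were not well above background on any wild-type array, so only a lower bound of the fold is known. The bound sets the mean of the null samples against the higher, on each wild-type array, of the lowest signal well above background and the probe's own. The interval chr18:69923410-69965360_F was at -1.86, -2.96 and -2.47 in null, at least 4.68-fold above that floor. The interval chr3:58118325-58136550_F, at -2.53, -3.17 and -2.85, was at least 3.50-fold higher. The interval chr10:6480075-6603900_R, the longest called at 123826 bp, was at least 1.76-fold higher, and chr4:35106125-35127700_R at least 1.37-fold. Each rests on 1 kept probe. Within the chromosome 10 interval, the shorter chr10:6497224-6497863_R went the other way, with -1.89, -2.03 and -1.98 in wild type and -2.15, -2.59 and -3.03 in null, a difference of -0.62 (SE 0.23) that did not pass.

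Of the 9 intervals that fell, the clearest pair lay in 1 locus on chromosome 6. The interval chr6:36790208-36792056_R had values of 0.54, 0.61 and 0.82 in wild type and of -1.13, -1.26 and -1.95 in null. It fell by 2.10 on the log2 scale, a 4.29-fold change (SE 0.24, limma adjusted p = 0.0249). The interval of 28276 bp that contains it, chr6:36765550-36793825_R, had -0.87, -0.55 and -0.70 in wild type and -2.70, -2.15 and -3.25 in null. This longer interval fell by 1.99 (SE 0.28, limma adjusted p = 0.0424). The 2 other kept probes of each had differences of -1.90 and -1.93 for the shorter and of -1.52 and -2.21 for the longer interval. Null sample 3 was the lowest of the 6 for both, and wild-type and null values lay over 1 log2 unit apart.

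The interval chr15:58985008-58985429_F also had 3 kept probes with lower values in null. Values were -2.42, -1.87 and -2.36 in wild type and -3.77, -4.76 and -4.08 in null. The fall was 1.98 (SE 0.29, limma adjusted p = 0.0441), with the other probes at -2.31 and -1.68. The interval chr8:26212577-26218527_R had -2.20, -1.64 and -2.74 in wild type and -5.06, -5.41 and -3.96 in null. It fell by 2.61 (SE 0.43), but this probe was well above background on 1 null array only, so the size of the fall is uncertain. The 3 other kept probes of the interval had differences of -2.55 to -0.73, and at least 1 of them was well above background on all 6 arrays. The smaller falls were those of chr4:3406175-3443875_R, from -2.89, -3.33 and -3.23 to -4.31, -4.33 and -5.02, and of chr3:85571525-85645700_R, from -2.87, -2.72 and -2.88 to -3.82, -4.00 and -3.88. They came to -1.41 (SE 0.24) and -1.07 (SE 0.14). A shorter interval within each gave -0.40 (SE 0.20) and -0.50 (SE 0.22), which did not pass.

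The other 3 falling intervals were each represented by a probe that was not well above background on any null array. The interval chr1:88187397-88187862_R had wild-type values of -1.58, -2.09 and -2.51 and was at least 7.66-fold lower in null. It had the largest bound of all called intervals, and its other kept probe had a difference of -3.44. The interval chr10:41368681-41393645_R, at -3.03, -2.59 and -3.59 in wild type, was at least 3.81-fold lower by that probe. Its other kept probe was well above background on 5 arrays, null ones among them, and had a difference of -2.01. The interval chrX:92149320-92151107_R, at -3.80, -3.89 and -4.23, was at least 2.03-fold lower on 1 probe. All 3 had R names, as did 8 of the 9 intervals that fell, while 8 of the 12 that rose had F names. Over all members the letters were nearly level, with 94 higher and 77 lower among 1133 F names and 84 higher and 82 lower among 1182 R names at an unadjusted p under 0.05. Whether calls of the letters differ was not tested.

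**Figure D2:**
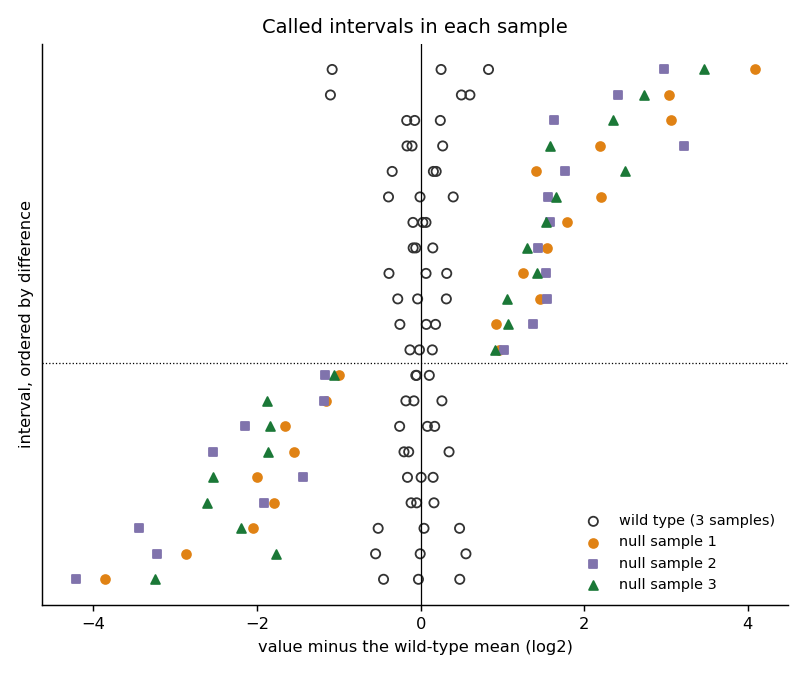
Each row is 1 of the 21 called intervals, ordered by difference, and the x axis gives each sample's value minus the wild-type mean (log2). Open circles are the 3 wild-type samples and filled symbols the 3 null samples, and in no row do the groups overlap.

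The called intervals are 20 loci, where a locus joins overlapping measured intervals under the same letter. Another kept probe was present for 11 of the 21, and for 9 of those all other probes had the same sign. In all, 21 of 23 other kept probes had the sign of the called probe. Of 8 called loci with 2 or more measured intervals, 6 held 1 sign and 2 held both. The called probes were well above background on all 6 arrays for 10 intervals. In the authors' deposited table, 30 of the members' probes passed its thresholds of p 0.01 and 1.4-fold, 19 higher and 11 lower, which is 1.3% against 3.2% of all entries. Of the 21 called intervals, 11 were among them.

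How far an interval's difference repeats within its locus was described over all members, with no test, since the points share the same 6 arrays. The brightest and the next kept probe of 1 interval gave differences with a Pearson correlation of 0.69 over 1222 intervals (Spearman 0.63), and 75% of them shared a sign. Overlapping intervals under the same letter gave 0.44 over 583 pairs (Spearman 0.43), with 67.4% sharing a sign. F and R names of the same coordinates gave 0.22 over 381 pairs (Spearman 0.24), with 60.9%. Likeness of the differences was thus highest between probes of 1 interval and lowest between the letters.

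**Figure D3:**
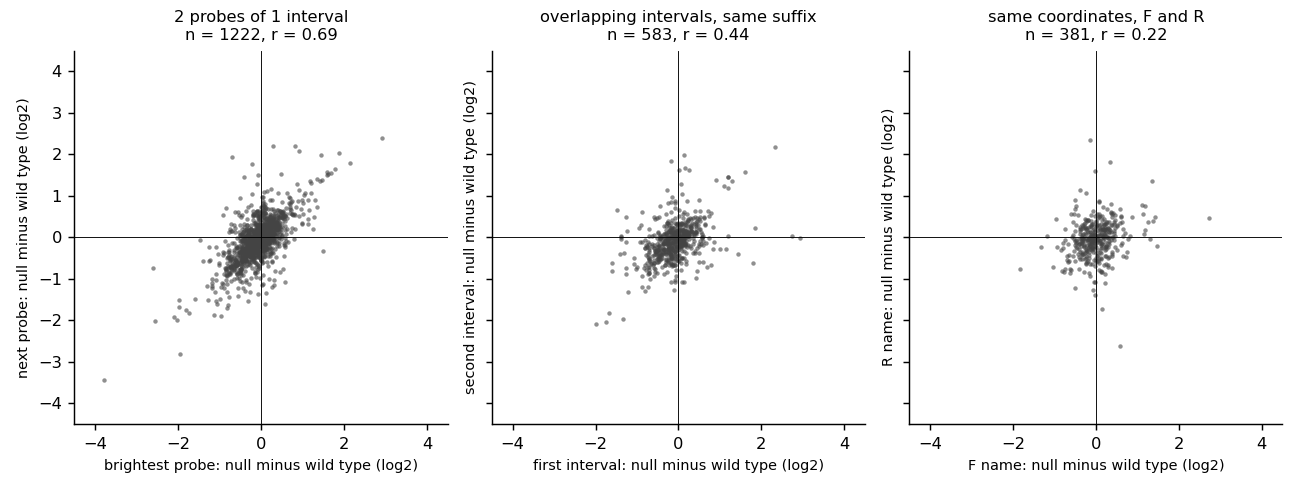
Each point is a pair, and both axes give the null minus wild-type difference (log2) of its members. The panels show 2 probes of 1 interval (r = 0.69, n = 1222), overlapping intervals under the same letter (r = 0.44, n = 583) and the F and R names of the same coordinates (r = 0.22, n = 381).

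Both letters were on the array for 1067 of 3540 coordinates. Both were measured for 381 of these, 1 alone for 437 (194 F and 243 R) and neither for 249. Both letters had an unadjusted p under 0.05 with the same sign at 12 coordinates and with opposite signs at 0, and 1 letter alone reached it at 78. In either direction, 14.6% of all measured intervals and 24.1% of all entries reached that p. On chr11:16831925-16851121 the R values were -0.60, -1.31 and -1.29 in wild type and -0.16, 1.12 and -0.11 in null. The R difference was 1.36 (SE 0.39). F was not well above background on any wild-type array, and its null values came to a bound of at least 1.27-fold higher. On chr13:53100475-53113850 both were negative, at -1.82 (SE 0.61) for F and -0.76 (SE 0.28) for R. The other kept probes gave -1.95 and -1.76 for F and -2.46 to -1.45 for R, so the gap in size depends on the probe. The F values there were 2.93, 4.35 and 4.03 in wild type and 1.52, 1.12 and 3.21 in null, where null sample 3 lay inside the wild-type range. None of these 4 intervals passed the adjusted threshold in limma. At chr10:6480075-6603900, F had a difference of 0.35 (SE 0.17), of the same sign as the called R given above.

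The letters parted in sign or in size elsewhere. At chr8:26212577-26218527, where R fell by 2.61, the F values were -4.28, -4.86 and -4.62 in wild type and -4.49, -4.32 and -3.24 in null. The F difference there was 0.57 (SE 0.35). At chr17:32035750-32056000, R was at -1.07, -0.87 and -1.32 in wild type and at -3.28, -3.56 and -1.64 in null, a difference of -1.74 (SE 0.49), while F was at 0.15 (SE 0.27). At chr4:35106125-35127700, F had a difference of -0.14 (SE 0.22) beside the risen R. At chr8:108153471-108159672, F was at -3.66, -4.88 and -4.71 in wild type and at -1.25, 0.15 and -3.94 in null. R had a smaller difference of the same sign, 0.47 (SE 0.34). The F difference of 2.74 had an SE of 0.98, since null sample 3 stayed near wild type. It rests on 1 kept probe, and chr8:108153471-108159346_F, with the same start, had a difference of 0.02.

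Several intervals detected on all 6 arrays had large differences that missed the adjusted threshold. On chromosome 13, chr13:60508775-60534625_R and chr13:60524145-60528559_R, which lies within it, had higher values in null. The first was at -1.15, -2.00 and -0.85 in wild type and at 0.65, -0.04 and 0.19 in null, and the second at -0.35, -1.17 and 0.19 and at 1.402, 0.99 and 1.01. Their differences of 1.60 (SE 0.33) and 1.58 (SE 0.34) had adjusted p-values of 0.0684 and 0.0741 in limma, and the groups did not overlap in either. The interval chr17:34018371-34019394_R differed by 1.67 (SE 0.58), and its 2 other kept probes gave 1.54 and 1.97. The longer chr17:33995525-34028025_R, which contains it, had a difference of 0.16 (SE 0.26). The interval chr19:60220577-60238494_F differed by 1.48 (SE 0.41). In this last interval the wild-type samples lay within -4.06 to -4.00 while the null samples spread from -3.48 to -1.72.

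Among those with lower values, several had null sample 3 close to wild type. The interval chr9:78107225-78118850_F was at -1.58, -1.78 and -1.79 in wild type and at -4.67, -4.57 and -1.81 in null. The intervals chr17:32044823-32045974_R and its container chr17:32035750-32056000_R also had null sample 3 nearest to wild type, the former with -0.26, -0.05 and -0.71 in wild type and -2.58, -3.41 and -1.12 in null. Differences were -1.97 (SE 0.74) for the chromosome 9 interval and -2.03 (SE 0.55) for the shorter chromosome 17 interval. The lymphocyte genes given above also stood nearest to wild type in null sample 3, and the part of those cells was not tested. By contrast chr2:127988295-128194920_R was lowest in null sample 3, with -1.01, -0.96 and -1.74 in wild type and -2.58, -2.34 and -3.58 in null (difference -1.60, SE 0.37). The interval chr11:3538125-3554450_R was low in all null samples, at -3.35, -3.21 and -3.57 against -2.29, -1.18 and -2.48 (difference -1.39, SE 0.35). Its 2 other kept probes gave -0.68 and -0.58, and 3 intervals under the same letter that overlap it gave -0.05, 0.04 and 0.01.

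Intervals tend to lie in clusters, and neighbours under 100 kb apart were joined into stretches. The 3 stretches with the most members held 13, 13 and 12 intervals, in 2, 8 and 6 loci. None of their intervals passed the adjusted threshold in limma. The stretch of 508 kb on chromosome 13 (chr13:28477490-28985604) had 1 interval with an unadjusted p under 0.05, chr13:28506971-28511732_R, which no wild-type array detected and whose null values came to a bound of at least 1.42-fold above wild type. Near its end, chr13:28947034-28949166_R was at 0.62, 0.87 and 0.59 in wild type and at 0.89 and 0.92 in null samples 1 and 2, but at -1.21 in null sample 3. The intervals starting at 28952570 and 28975118 had null values of -1.32, -1.43 and -3.03, and of -3.60, -3.18 and -6.36. Null sample 3 was thus low there while the other null samples were not below wild type. The stretch of 296 kb on chromosome 8 (chr8:122712014-123008463) had no interval with an unadjusted p under 0.05, and its differences lay between -0.51 and 0.56. These are values of the brightest probe of each interval. At chr8:122920901-123008463_F, with a difference of 0.07, the 4 other kept probes gave -1.38 to -0.48.

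The stretch of 147 kb on chromosome 12 (chr12:110842149-110988678) leaned to lower values in null. The median difference over its 12 intervals was -0.50, 10 were negative and 3 were lower at an unadjusted p under 0.05, as were 10% of all entries. Its highest difference was 0.34 and its lowest -0.85, the latter for chr12:110973190-110987668_F with -0.12, -0.38 and -0.85 in wild type and -1.45, -1.50 and -0.95 in null. The 3 R names of the stretch had differences between -0.15 and 0.01, and 8 of its 9 F names were negative. Null sample 3 lay above null samples 1 and 2 at most of those F names, near wild-type sample 3.

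Some smaller stretches held several intervals with an unadjusted p under 0.05 on 1 side. Over all entries 14.1% were higher and 10% lower at that p. The stretches were picked after their values were seen and get no test. Others held such intervals on both sides, as did chr1:63163019-63349796 with 2 higher and 1 lower of 6. On chromosome 1 (chr1:175653557-175717250), 5 of 6 intervals were lower and all 6 differences lay between -1.02 and -0.62. There chr1:175705225-175717250_R was at 6.31, 5.98 and 5.79 in wild type and at 5.25, 4.56 and 5.70 in null. On chromosome 2 (chr2:127988295-128250301), 4 of 6 were lower, with differences of -1.60 to -0.61. On chromosome 3 (chr3:126989696-127201919), 3 of 4 were lower and all 4 differences, under both letters, were negative, with chr3:127039311-127201919_R at -1.41, -1.54 and -2.06 in wild type and -2.63, -2.78 and -3.54 in null. On chromosome 5 (chr5:137392195-137426421), the 3 F names, which overlap in 1 locus, were higher, at 1.19, 1.19 and 1.44. The R name was at 0.17. On chromosome 17 (chr17:56687541-56803877), which holds the called interval with the near-identical partner, 4 of 8 were higher. In each of these stretches some intervals overlap under the same letter, so the counts are of names and not of separate loci.

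**Figure D4:**
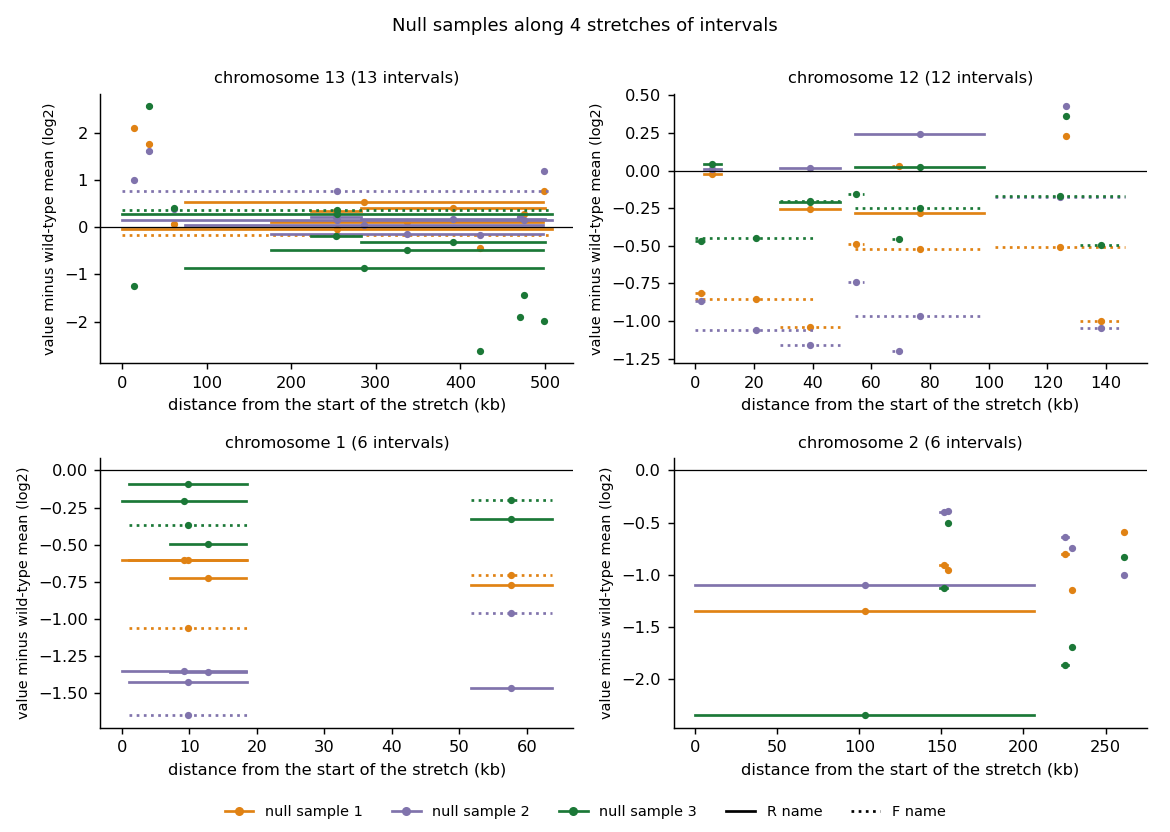
Each dot and line is 1 interval in 1 null sample, drawn from its start to its end (distance from the start of the stretch, kb) at its value minus the wild-type mean (log2, y axis). Solid lines are R names and dotted lines F names; on chromosome 13 null sample 3 lies apart near the end of the stretch, and on chromosomes 1 and 2 all null values lie below the wild-type mean.

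Null sample 3 was low at many intervals. Among intervals well above background on all 6 arrays with no missing value (1822), null sample 3 was the lowest of the 6 samples by over 1 log2 unit at 53 (2.91%), while each of the other 5 samples was so at 1 or 2 intervals. Over the 17923 other entries the share for null sample 3 was 0.686%. With a gap of 0.5 it was lowest at 209 intervals (11.5%) against 3.89% of other entries, and next came wild-type sample 3 and null sample 2 with 28 each (1.54%). The excess had a direction, since null sample 3 was the highest by over 1 at 3 intervals (0.165%). This way of counting was chosen after the values were seen, and the cause was not tested.

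The 53 intervals lay on 17 chromosomes in 48 loci, 5 of which held more than 1 of them. Of 945 R names counted 35 were among them, and of 877 F names 18. The widest gap was that of chr17:46972160-46997919_R, at 0.77, 1.15 and 0.75 in wild type, 1.12 and 1.02 in null samples 1 and 2, and -1.09 in null sample 3. In the locus of chr6:83368261-83407280_R, that interval was at 3.23, 3.68 and 3.22 in wild type and at 3.49, 3.12 and 1.64 in null, and chr6:83367433-83370986_R at -1.45, -1.85 and -3.60 in null. On chromosome 15, chr15:73231192-73231819_R was at -0.57, 0.24 and 0.01 in wild type and at -0.05, -0.34 and -2.13 in null. A next kept probe without missing values was present for 45 of the 53. Null sample 3 was the lowest of the 6 for 43 of these, by over 0.5 for 36 and by over 1 for 20. Among the other intervals on all 6 arrays, null sample 3 was lowest for 371 of 1062 next probes. Over all members, the median absolute deviation from the wild-type mean was 0.39 in null sample 3 and 0.26 and 0.27 in null samples 1 and 2.

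**Figure D5:**
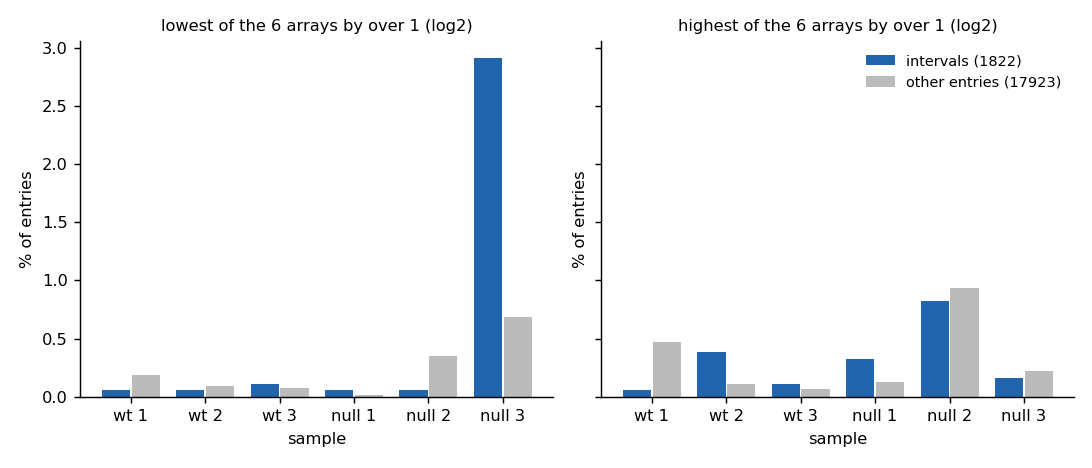
Bars give the percentage of entries, well above background on all 6 arrays, for which 1 sample was the lowest (left) or the highest (right) of the 6 by over 1 log2 unit, for intervals (blue) and all other entries (grey). Null sample 3 was lowest at 2.91% of intervals and 0.686% of other entries.

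Across chromosomes the calls were scattered, with 4 of the 21 on chromosome 6, 3 on chromosome 8 and at most 2 on any other. At an unadjusted p under 0.05 the share of measured intervals ran from 5.1% of 98 on chromosome 7 to 21.6% of 125 on chromosome 3, against 24.1% of all entries in either direction. Chromosome 13, which carries Plk2, had 0 called intervals of 119 in limma, with 15 higher and 5 lower at an unadjusted p under 0.05. The distance of those intervals from Plk2 was not analysed here. The median difference was lowest on chromosome 1 at -0.15 over 178 intervals and highest on chromosome X at 0.11 over 72.

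Genes whose products are known to bind, mark or degrade such RNAs were read beside the intervals. Of 14 measured genes of the Polycomb repressive complexes, 1 had an unadjusted p under 0.05, Eed, at 3.64 in wild type and 3.99 in null (difference 0.35, SE 0.13). Among the methyltransferases of that list, Ezh2 differed by 0.38 (SE 0.18) and Ezh1 by -0.32 (SE 0.19), with neither at that p. Of 10 measured genes of the H3K4 and H3K36 methylation machinery, Dpy30 and Ash2l, both core subunits of H3K4 methyltransferase complexes, were higher at that p, by 0.85 (SE 0.16) and 0.64 (SE 0.17). Of 12 genes for nuclear RNA-binding proteins and RNA decay, 4 were higher, among them Nono, a paraspeckle protein, by 0.51 (SE 0.13) and Mtrex, the helicase that feeds RNA to the nuclear exosome, by 0.46 (SE 0.14). Over all entries 14.1% were higher at that p. No gene of these lists passed the adjusted threshold in limma, and the list medians were 0.05, -0.10 and 0.21 beside 0.04 over all entries.

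In 3 of the 4 intervals of widest spread within wild type, 1 sample stood apart. The interval chr13:74738675-74756950_R stood at -0.95 in wild-type sample 1, at -5.02 and -4.10 in the other wild-type samples and at -5.31 to -4.60 in null. The intervals chr5:152006587-152008784_R and chr8:24327427-24332452_R were high in wild-type sample 2, at -1.62 and -1.92, and the other wild-type samples lay between -5.38 and -4.46. In the other, chr4:101010948-101032148_F, all 3 wild-type samples lay apart, at -6.00, -4.60 and -2.37. Differences at these intervals had SEs of 0.84 to 0.97 and did not pass.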

How the data were processed

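Per the file headers, arrays of design 028005 (mm9 annotation) were read with Feature Extraction 11.0.1.1 (protocol GE1_1100_Jul11), which wrote the deposited processed intensity, background-subtracted by the scanner software, and the deposited flags, a score of 0 or 1. The authors' deposited series table gives normalized intensity per probe with a p-value and fold; the sources used here do not state how it was made. Members and gene lists were chosen with earlier results of these data known.

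Here, log2 processed intensity was centred on each array's 75th percentile. Outlier-flagged and control spots were left out. Probes flagged well above background on 3 or more of 6 arrays were kept, and the probe of highest mean stood for a gene or interval. Null and wild type were compared in limma 3.58.1 (R 4.3.3) over 22053 entries with Benjamini-Hochberg adjustment, tested on simulated data. Of the entries, 14418 carried a RefSeq symbol (GRCm38.p6 table). Named intervals were those called (bounds where a group was below background), the 8 largest differences each way on all 6 arrays, 4 like and 4 unlike letter pairs, the 3 largest stretches and the 4 of widest wild-type spread. Intervals near Plk2 and neighbouring genes, which the design listed, could not be placed without mm9 gene positions and were not analysed here. Alternatives changed background correction, scaling, filter, probe choice, moderation, pairing and samples.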

Additional observations from a re-analysis of the deposited data

How the results depend on the processing

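Against 12 higher and 9 lower intervals, normexp background correction gave 28 and 12, or 1.73% of intervals against 5.55% of all entries. Shares follow in that order. Quantile normalization gave 7 and 5 (0.518%, 0.839%), median centring 17 and 12 (1.25%, 1.88%) and spike-in scaling 23 and 7 (1.3%, 2.43%, median interval difference 0.24). No filter gave 1 and 1 (0.0434%, 0.117%), the filter on all 6 arrays 18 and 7 (1.37%, 2.52%), and the mean of an interval's probes 7 and 8 (0.648%, 1.25%). Trend and robust moderation gave 28 and 14 (1.81%, 4.3%), array weights 54 and 35 (3.84%, 6.32%), and the deposited table's values 23 and 9 (1.38%, 3.91%). With each probe as an entry, an alternative chosen after seeing the data, 5 intervals had a probe called higher and 8 a probe called lower. Over all entries of that fit, 0.553% were called. An equal-variance test gave 0 and 0 calls, with 148 and 104 at an unadjusted p under 0.05. That was 10.9% of intervals against 21.5% of all entries. Same-numbered samples did not deviate together (correlations of -0.11, 0.0041 and -0.06). A fit with the replicate block gave 0 and 0 calls, with 144 and 170 at an unadjusted p under 0.05. These made up 13.6% of intervals, against 19.7% of all entries. Leaving out 1 sample at a time gave 0 to 26 higher and 0 to 24 lower, at most 2.16% of intervals. Over all entries these fits called 0.0635% to 3.75%. Leaving out 1 sample or changing the test alone could not change the sign of a called interval. In the other alternatives in which it was measured as an entry, no called interval changed sign. The filter on all 6 arrays left 11 of the 21 measured, and with each probe as an entry signs were not compared. Dim probes limit the precision: the called probe was not well above background on all 6 arrays for 11 of the 21. The cause of these shifts was not tested.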
